A study of Mus musculus with 4 samples.

Results

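The genes described here encode the subunits of respiratory complexes II to V and cytochrome c, the electron carrier between complexes III and IV. They were taken from the deposited count table by symbol: protein-coding rows named Sdha to Sdhd, Uqcr, Cox4 to Cox8 or Atp5, together with Cyc1, Cycs and the mitochondrially encoded CYTB, COX1, COX2, COX3, ATP6 and ATP8. The rule found 49 of the 14934 genes in the table, 43 encoded in the nucleus and 6 on mitochondrial DNA. Complex II was represented by 4 genes, complex III by 10, cytochrome c by 1, complex IV by 15 and complex V by 19. The RNA came from CD8 T cells of mice with hepatocellular carcinoma, a liver tumour, separated by flow cytometry into cells with and without surface JAML, a receptor of the immunoglobulin superfamily. Both groups were of wild-type (WT) genotype, no agent is given for either, and each group had 2 libraries, lettered A and B. The labels do not say whether the letters stand for separate mice, pooled mice or repeated sorts, and the spread that a p-value measures here is that between libraries, possibly a technical one. For the tumour model and the mouse strain the sources used here give nothing.

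The respiratory chain of the inner mitochondrial membrane passes electrons from nutrients to oxygen and stores the energy as a proton gradient, which ATP synthase, complex V, uses to make ATP. Complex II, succinate dehydrogenase, is also an enzyme of the citric acid cycle, complex III hands electrons to cytochrome c, and complex IV passes them to oxygen. Subunits of complexes III to V come from both genomes and are put together by assembly factors, while all subunits of complex II are nuclear. T cells raise mitochondrial respiration as they become activated, and long-lived memory cells are known for their respiratory reserve.

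Sequences are printed for genes on which the results turn. The c subunit forms the rotor ring of ATP synthase and is encoded by Atp5g1, Atp5g2 and Atp5g3, and the promoters of the latter 2 are shown from the RefSeq table for GRCm38, 250 bases before to 50 bases after the start of transcription. Capitals mark the letters GCGC, A, any base and GCGC in a row on either strand, the core of the site of NRF1, a transcription factor known for binding promoters of respiratory chain genes. The Atp5g3 window is chr2:73911277-73911576 (minus strand) and the Atp5g2 window chr15:102670998-102671297 (minus strand). The start used for Atp5g3 lies inside the outer boundary of the gene.
Atp5g3 promoter: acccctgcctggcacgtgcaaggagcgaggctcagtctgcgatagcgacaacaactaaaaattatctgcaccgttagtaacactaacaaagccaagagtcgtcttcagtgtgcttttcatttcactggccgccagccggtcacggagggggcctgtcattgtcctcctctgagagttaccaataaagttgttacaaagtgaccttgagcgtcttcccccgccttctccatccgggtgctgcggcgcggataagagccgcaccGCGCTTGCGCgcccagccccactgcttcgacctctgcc
Atp5g2 promoter: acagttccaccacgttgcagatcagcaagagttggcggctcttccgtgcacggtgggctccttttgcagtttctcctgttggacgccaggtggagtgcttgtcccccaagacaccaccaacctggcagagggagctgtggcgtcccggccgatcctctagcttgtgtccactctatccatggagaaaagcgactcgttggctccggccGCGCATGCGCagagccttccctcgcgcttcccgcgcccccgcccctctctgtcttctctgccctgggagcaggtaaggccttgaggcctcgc
An entry was found for 34 of the 49 genes, and 10 of the 34 (29.4%) held the motif: Atp5c1, Atp5g2, Atp5g3, Atp5h, Atp5k, Atp5o, Cox6a1, Sdha, Sdhd and Uqcrc1. Of all 27025 genes with a promoter of that length listed by RefSeq 5.19% held it in any such promoter, and the share was 10.2% of the 11728 that are counted here. The Atp5g1 window held no match. The median log2 fold change between the groups was 0.39 for the 10 genes with the motif and 0.56 for the 23 tested genes without it. A match of letters is a description and not a binding site.

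COX2, a core subunit of complex IV, is shown because a nuclear pseudogene carries the same letters. The stretch of COX2 is chrMT:7313-7392 (plus strand) and that of the pseudogene Gm28661 chr1:24615186-24615265 (minus strand), both GRCm38. Over the 681 bases compared between COX2 and Gm28661, 0 differed.
COX2: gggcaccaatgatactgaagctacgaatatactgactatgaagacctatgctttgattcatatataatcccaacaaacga
Gm28661: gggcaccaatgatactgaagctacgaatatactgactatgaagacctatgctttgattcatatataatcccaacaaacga
Gm28661 is not a row of the count table. Reads from such a stretch match both places equally well, which bears on the counts of the mitochondrial genes given further on.

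The comparison asks whether transcripts of the respiratory chain differ with the presence of JAML on CD8 T cells in the tumour. Values are in counts per 1000000 (CPM) after TMM scaling. For 45 of the 47 genes tested the estimate was higher in JAML-positive libraries, whereas 50.7% of all 11563 tested genes had a positive value. By transcript length that share was 68.3% under 800 nucleotides, 62.6% at 800 to 1500 and 48.7% at 1500 or more. Cytosolic ribosomal protein genes were alike in this, with 85 of 89 tested genes higher. The median log2 fold change was 0.45 for the respiratory genes and 0.01 for all tested genes. No single gene passed the test: 0 of 47 had an adjusted p under 0.05 in edgeR's quasi-likelihood test, as did 0% of all tested genes, and adjusted p ran from 0.609 to 0.989. At an unadjusted p under 0.05 there were 9 genes, all with higher values (4.32% of all tested genes were higher and 3.34% lower at that level). The lower JAML-positive library exceeded the higher JAML-negative library for 22 of the 47 genes, against 20.3% of all tested genes, and for 0 of the 47 the order was the opposite, against 18.2%.

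Other tools gave other counts. DESeq2 called 6 of the genes, all higher (3.95% of 12328 genes were called higher by it and 2.82% lower), and limma-voom called 0 (0% of all tested genes). The 6 were Atp5g3 (adjusted p = 0.00226), Uqcr11 (0.00595), Atp5md (0.0102), Uqcr10 (0.0185), Atp5j (0.0478) and Cox7a2 (0.0499). Their log2 fold changes in DESeq2 were 0.73, 2.20, 1.28, 1.28, 1.001 and 1.37 in that order. After a smooth trend on transcript length and GC content over all genes was taken off, the median of the respiratory genes was -0.03 with 22 of 47 above 0, where all tested genes had a median of -0.17 with 38.6% above 0. With a robust form of that trend, chosen after seeing the data, the median was 0.30 with 35 of 47 above 0, where all tested genes had a median of 0.02 with 51.3% above 0.

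**Figure D1:**
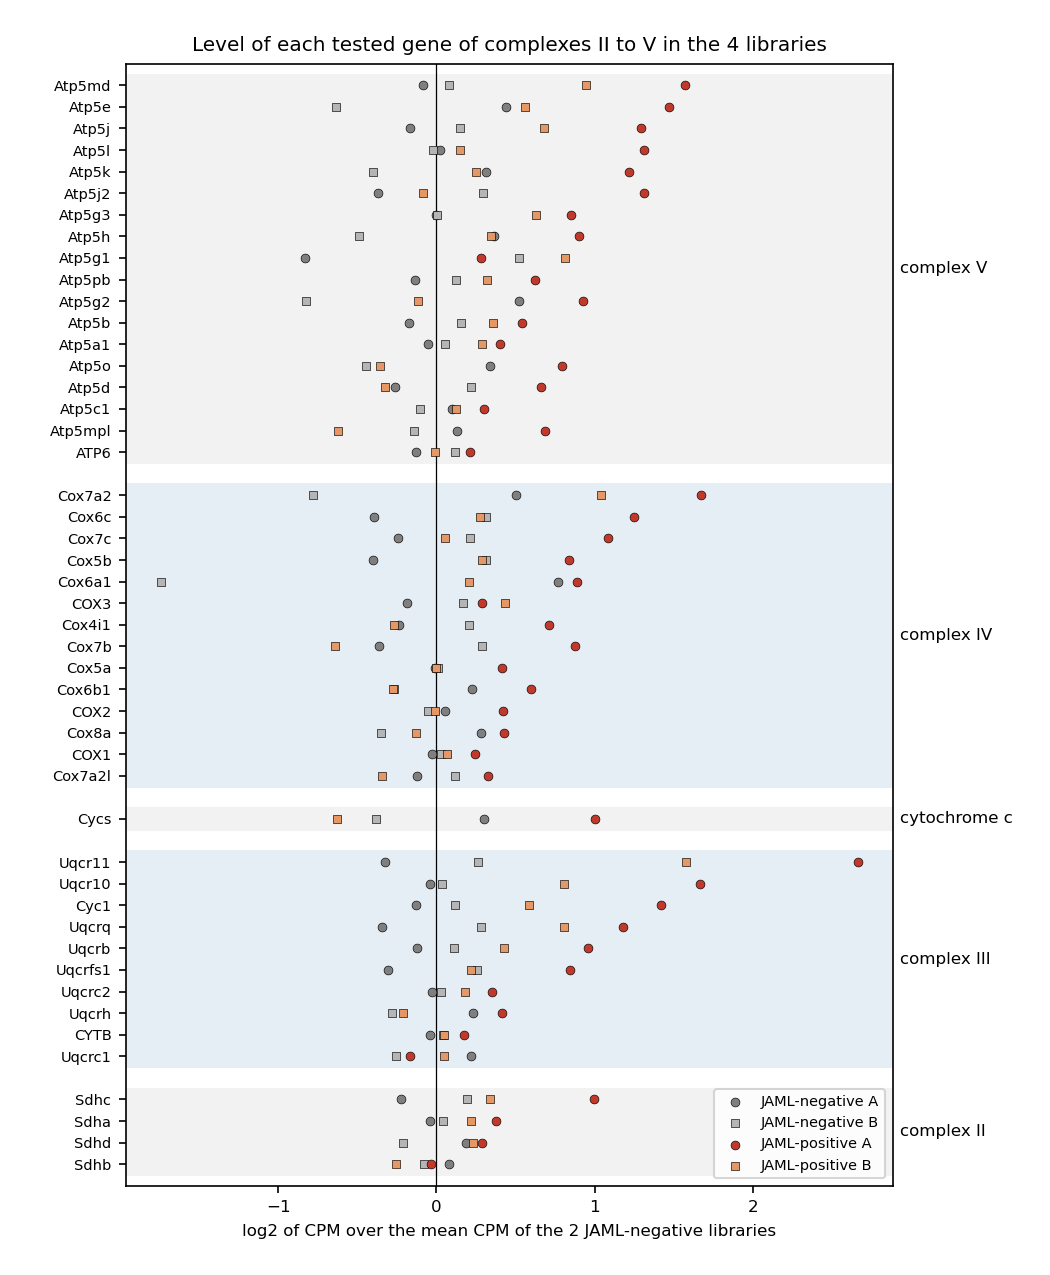
Each row is 1 of the 47 tested genes, grouped by complex, and each point is 1 library. The horizontal axis is log2 of the CPM over the mean CPM of the 2 JAML-negative libraries. JAML-positive replicate A (dark red circles) is the highest of the 4 libraries for 43 genes, and JAML-positive replicate B (orange squares) lies nearer to the JAML-negative libraries.

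The 2 JAML-positive libraries were not alike. JAML-positive replicate A was the highest of the 4 libraries for 43 of the 47 genes, against 27.1% of all tested genes. Within the JAML-positive pair, replicate A exceeded replicate B for 44 of 47 genes (49.6% of all tested genes), by a median of 0.63 on the log2 scale. Within the JAML-negative pair, A exceeded B for 18 of 47 (49.7% of all tested genes), with a median of -0.08. The plot of levels by library shows this as a right-hand column of JAML-positive replicate A points. Without that library the median log2 fold change of the 47 genes was 0.20 with 31 above 0 (48.7% of all genes tested in that fit), and without JAML-positive replicate B it was 0.78 with 45 above 0 (49.1%). Adjusted p was under 0.05 for 0 of the genes in both fits.

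JAML-positive replicate A also differed in measures outside the respiratory genes. Cytosolic ribosomal protein genes took 12.2% of its counts and 7.49% to 8.36% in the other libraries. Malat1, a nuclear non-coding RNA, took 0.0703% of its counts and 0.120% to 0.146% elsewhere. The median log2 fold change of 89 ribosomal protein genes was 0.29 with 85 above 0, and -0.18 with 14 above 0 without that library. The part of these differences in the respiratory values was not tested. Library totals were 27530187 to 30569728 counts. Jaml transcripts were at 131 and 117 CPM in the JAML-negative and 138 and 147 CPM in the JAML-positive libraries, a log2 fold change of 0.20 (SE 0.26).

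Several marker lists of other cells also differed between the groups. The 5 T cell markers in the table summed to 2856 and 2895 CPM in JAML-negative and 3346 and 2886 CPM in JAML-positive libraries. Among markers of dendritic cells and MHC class II (9 listed), 7 of the 8 tested had higher values in JAML-positive libraries. The list summed to 178 to 189 CPM in JAML-negative and 271 to 445 CPM in JAML-positive libraries. Itgax was lower in JAML-positive libraries without overlap, at 124 and 116 against 75.1 and 61.4 CPM. Ciita and Xcr1 had positive estimates with overlapping groups. For plasmacytoid dendritic cells 5 of 5 had higher values, with sums of 63.6 to 73.4 CPM against 196 to 207, and Ly6d was at 0 in both JAML-negative libraries. For B and plasma cells it was 4 of 4, with sums of 10.4 to 18.1 CPM against 84.9 to 126, and Mzb1 was at 0 in both JAML-negative libraries. For macrophages it was 4 of 6 with a median log2 fold change of 0.16, and the sums of 57.1 to 58.3 CPM against 132 to 181 turned on Mpeg1 (7.50 and 13.9 against 119 and 89.6 CPM), while Adgre1 and Lyz2 had negative estimates. The erythroid markers Hba-a1 and Hbb-bs summed to 0 and 0.0363 CPM in JAML-negative and 49.5 and 12.7 CPM in JAML-positive libraries. Hepatocyte markers summed to 23.9 and 4.36 CPM in JAML-negative and 14.6 and 14.9 CPM in JAML-positive libraries, with no order between the groups. Of the markers of CD4 and regulatory T cells, Cd4 was at 124 and 120 against 134 and 173 CPM. Foxp3 was at 1.06 and 4.65 against 10.1 and 0 CPM, with overlapping groups. Flt3, Ly6d, Ms4a1 and Mzb1 passed the count filter only through their JAML-positive libraries, so they could be counted only as higher. The part of other cells in the respiratory values was not tested. In bulk RNA, fewer cells of a type and less RNA per cell cannot be told apart.

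**Figure D2:**
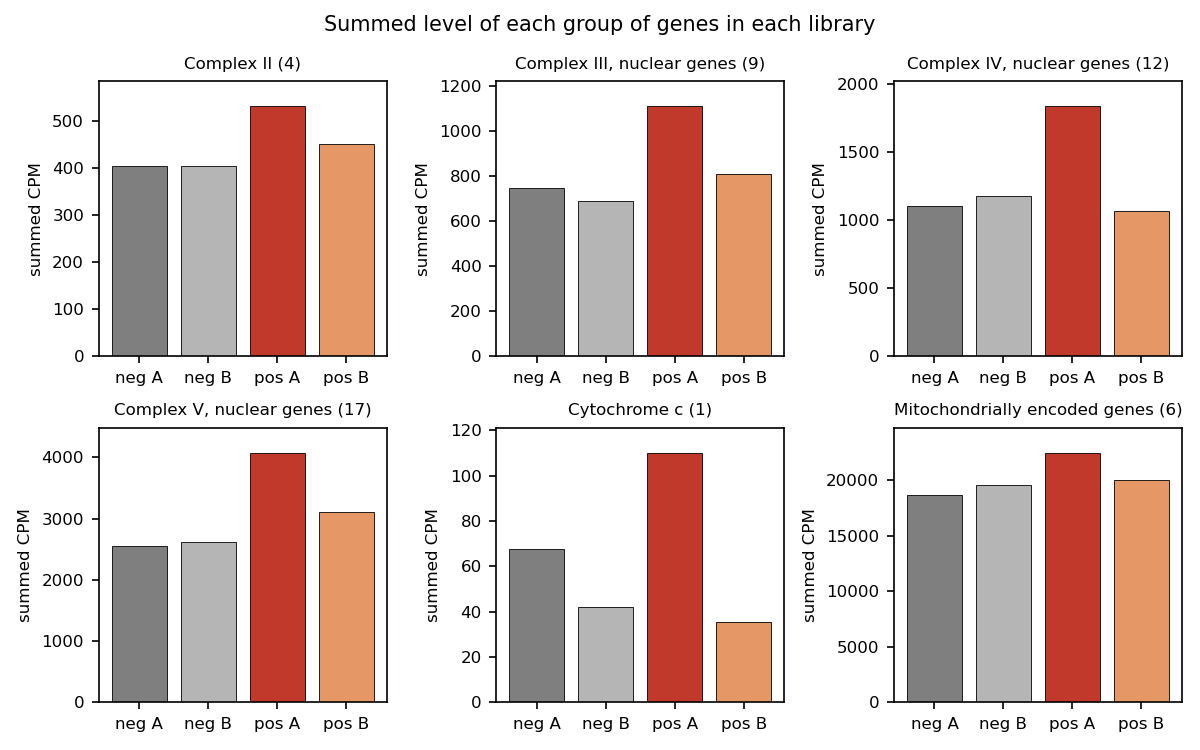
Bars show the summed CPM of the genes of each group in each of the 4 libraries, with the number of genes in brackets, and every vertical axis starts at 0. The nuclear genes of complexes II, III and V and the mitochondrially encoded genes have both JAML-positive bars above both JAML-negative bars, while for nuclear complex IV genes and cytochrome c JAML-positive replicate B is the lowest bar.

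Summed by complex, complex V had the largest ratio between the groups. Its 19 genes summed to 2569 and 2634 CPM in the JAML-negative libraries (A, then B) and to 4084 and 3124 CPM in the JAML-positive ones, a ratio of group means of 1.39. Complex II gave 405, 404, 532 and 452 CPM in the same order (ratio 1.21). Complex III gave 4838, 5019, 5867 and 5160 CPM (1.12), and complex IV 15717, 16426, 19528 and 16717 CPM (1.13). In all 4 complexes both JAML-positive sums lay above both JAML-negative sums, and no test was run, since a two-sided exact permutation test of 2 libraries against 2 cannot give a p below 0.333.

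The sums of complexes III and IV were mostly mitochondrial transcripts. COX1 and CYTB made up 74.4% to 79.7% of the CPM of all 49 genes. When only the nuclear genes were summed, complex III gave 748 and 689 CPM in JAML-negative and 1110 and 808 CPM in JAML-positive libraries (ratio 1.34). The nuclear genes of complex IV gave 1104 and 1175 CPM in JAML-negative and 1836 and 1066 CPM in JAML-positive libraries (1.27), so here the groups overlapped: JAML-positive replicate B was the lowest of the 4. The bars of summed levels show the same order. All 43 nuclear genes together summed to 4884, 4934, 7661 and 5475 CPM, a ratio of 1.34 that was 1.12 for JAML-positive replicate B alone and 1.56 for replicate A alone.

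Complex II had the fewest genes and small differences. Sdha, the flavoprotein that oxidises succinate (chromosome 13, 74322255 to 74350240, GRCm38), was at 201 and 212 CPM in JAML-negative and 268 and 240 CPM in JAML-positive libraries. The groups did not overlap, and the log2 fold change was 0.30 (SE 0.23, adjusted p = 0.759). Sdhb, the iron-sulphur subunit, was at 81.7 and 73.2 CPM in JAML-negative and 75.5 and 64.7 CPM in JAML-positive libraries. It was 1 of only 2 respiratory genes with a negative estimate (-0.15, SE 0.33), and its groups overlapped. Sdhc, a membrane anchor, was at 44.8 and 60.1 CPM against 104 and 66.4 CPM, with a log2 fold change of 0.69 (SE 0.38). The other anchor, Sdhd, was at 78.0 and 59.3 CPM against 83.8 and 80.5 CPM, with 0.26 (SE 0.34). Neither anchor's groups overlapped, and for Sdhc the 2 JAML-positive libraries differed from each other by more than JAML-positive replicate B differed from the JAML-negative libraries. Without JAML-positive replicate A, Sdhc was at 0.35 and Sdhb at -0.26, and without JAML-positive replicate B Sdhb was at -0.04. For Sdhd, leaving out JAML-negative replicate A gave 0.47 and JAML-negative replicate B 0.08, and Sdhb was at -0.07 without JAML-negative replicate A. The median of the 4 genes was 0.28, and 0.23 without JAML-positive replicate A.

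Complex III held the largest estimate of the 47 genes. Uqcr11, a small accessory subunit (chromosome 10, 80402997 to 80406821), was at 5.73 and 8.64 CPM in JAML-negative and 45.6 and 21.5 CPM in JAML-positive libraries. Both JAML-positive values were above both JAML-negative values, with an estimate of 2.19 on the log2 scale (SE 0.75, adjusted p = 0.609) that was 1.58 without JAML-positive replicate A. Uqcr10, another small accessory subunit (chromosome 11, 4701968 to 4704344), was at 28.3 and 29.9 CPM against 92.3 and 50.8 CPM. Its groups did not overlap, its log2 fold change was 1.28 (SE 0.45, adjusted p = 0.609), and leaving out JAML-positive replicate A gave 0.81. Cyc1, the cytochrome c1 that passes electrons on to cytochrome c, was at 29.7 and 35.2 CPM against 87.0 and 48.7 CPM. That was a log2 fold change of 1.05 (SE 0.45), again without overlap, and 0.59 when JAML-positive replicate A was left out.

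Uqcrfs1, the Rieske iron-sulphur protein, had overlapping groups and a log2 fold change of 0.56 (SE 0.33), or 0.22 without JAML-positive replicate A. Smaller estimates were found for CYTB, Uqcrh and Uqcrc1. CYTB, the mitochondrially encoded cytochrome b, was at 4091 and 4330 CPM in JAML-negative and 4757 and 4352 CPM in JAML-positive libraries. The log2 fold change was 0.11 (SE 0.18), and JAML-positive replicate B lay just above the higher JAML-negative library. Leaving out JAML-positive replicate A gave 0.05 for CYTB, JAML-negative replicate A 0.07 and JAML-positive replicate B 0.17. Uqcrh, the hinge protein that docks cytochrome c and the nuclear gene of the complex with the highest mean CPM, was at 267 and 187 CPM against 302 and 196 CPM. Its groups overlapped (log2 fold change 0.13, SE 0.28), and without JAML-positive replicate A the value was -0.21. Uqcrc1, a core protein, was at 159 and 115 CPM against 122 and 141 CPM. It was the other gene with a negative estimate (-0.05, SE 0.28), and its JAML-positive values lay between its JAML-negative values. Over the complex 9 of 10 genes had positive values with a median of 0.63, and without JAML-positive replicate A 9 of 10 with a median of 0.33.

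Cytochrome c, encoded by Cycs, did not separate the groups. It was at 67.7 and 42.2 CPM in JAML-negative and 110 and 35.6 CPM in JAML-positive libraries, so the JAML-positive pair held both the highest and the lowest value. The log2 fold change was 0.37 (SE 0.50), and -0.63 without JAML-positive replicate A.

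In complex IV, 14 of 14 tested genes had positive estimates, and 3 of 14 had groups that did not overlap, near the 20.3% of all tested genes that did so with higher values. These were Cox7a2, COX1 and COX3. Cox7a2, a small structural subunit (chromosome 9, 79755241 to 79771422), was at 53.8 and 22.0 CPM in JAML-negative and 121 and 77.9 CPM in JAML-positive libraries. It had the smallest unadjusted p of the respiratory genes (0.0088), with an estimate of 1.37 on the log2 scale (SE 0.44, adjusted p = 0.609), or 1.04 without JAML-positive replicate A, and leaving out JAML-negative replicates A and B in turn gave 2.16 and 0.88. Cox7a2l, a related protein that links complex IV to complex III in supercomplexes, was at 296 and 349 CPM against 403 and 254 CPM. Its JAML-positive libraries were the highest and the lowest of the 4, and its log2 fold change was 0.02 (SE 0.25), with -0.01 when libraries were scaled by their totals alone. Without JAML-positive replicate A 7 of 14 genes of the complex had positive values and the median went from 0.29 to 0.03.

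The mitochondrially encoded core of complex IV is COX1, COX2 and COX3. COX1, which holds the site where oxygen is reduced, was at 14579 and 15215 CPM in JAML-negative and 17646 and 15612 CPM in JAML-positive libraries, the highest level of the 49 genes. Its groups did not overlap, and its log2 fold change of 0.16 (SE 0.17) was 0.07 without JAML-positive replicate A and 0.24 without JAML-positive replicate B. COX2, which receives electrons from cytochrome c, was at 23.9 and 22.2 CPM against 30.9 and 22.9 CPM, with 0.21 (SE 0.56). JAML-positive replicate B lay between the JAML-negative values of COX2. COX3, the third core subunit, was at 10.6 and 13.5 CPM against 14.8 and 16.3 CPM, with 0.37 (SE 0.75) and no overlap. Leaving out JAML-negative replicate A gave 0.20 for COX3, and JAML-negative replicate B 0.56. Tissue isoforms of complex IV are represented by Cox6b2, known from testis, which had 2 counts in JAML-negative replicate B and 0 in the other 3 libraries. A count of 0 allows up to 0.0981 to 0.109 CPM (3 counts), so Cox6b2 was at or below the floor in every library, and such floors cover counting error only. It did not pass the filter on low counts. Cox4i2, Cox6a2, Cox7a1, Cox7b2, Cox8b and Cox8c had no protein-coding row under these symbols in the count table, so no count can be given for them.

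**Figure D3:**
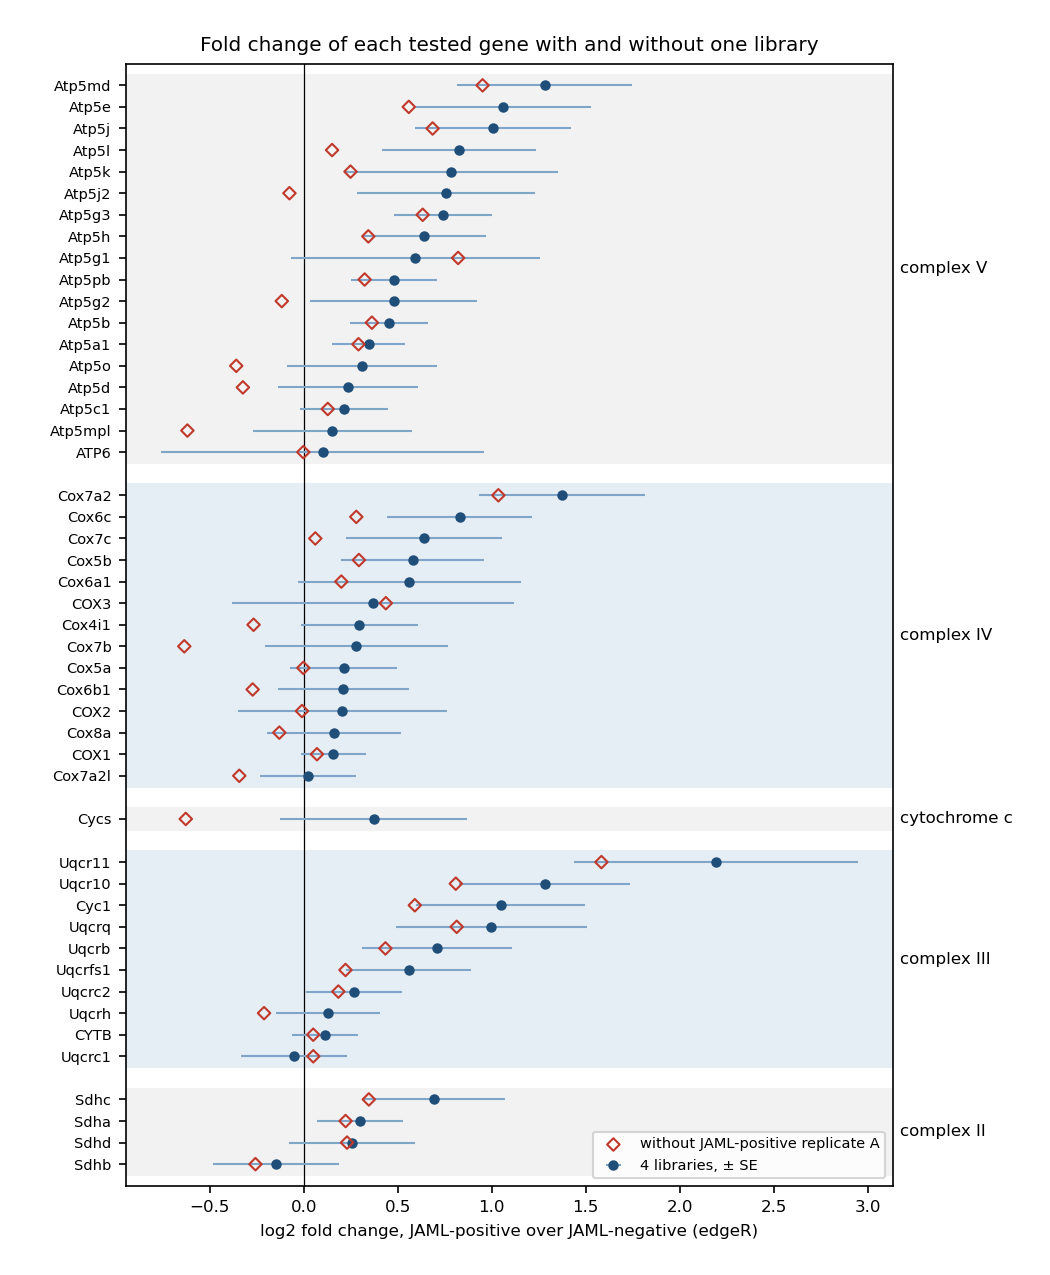
Filled circles with bars are log2 fold changes (JAML-positive over JAML-negative) with 1 SE from edgeR for the 47 tested genes, and open diamonds are the values without JAML-positive replicate A. In complex III 9 of 10 diamonds stay above 0, and in complex IV 7 of 14 do.

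Complex V, ATP synthase, had positive estimates for 18 of 18 tested genes, with a median of 0.54, and 9 of 18 had groups that did not overlap, against 20.3% of all tested genes. Without JAML-positive replicate A, 12 of 18 were positive with a median of 0.27. Atp5b, the catalytic beta subunit (chromosome 10, 128083307 to 128090388), was at 596 and 749 CPM in JAML-negative and 980 and 863 CPM in JAML-positive libraries. The groups were apart, and the log2 fold change was 0.45 (SE 0.21, adjusted p = 0.609), or 0.29 without JAML-negative replicate A. Atp5a1, the alpha subunit that alternates with beta in the catalytic head, was at 656 and 708 CPM against 901 and 833 CPM. This was a log2 fold change of 0.35 (SE 0.19), also without overlap. These were the nuclear genes with the highest mean CPM, and among the nuclear genes the log2 fold change tended to be smaller at higher mean CPM (Spearman's rho across 42 genes, -0.61), where genes share the same libraries and are not independent.

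The 3 genes of the c subunit give the same mature protein but were not at like levels. Atp5g3 (chromosome 2, 73908447 to 73912464) was at 110 and 111 CPM in JAML-negative and 199 and 171 CPM in JAML-positive libraries. The JAML-negative pair were almost equal and both JAML-positive libraries were above them, with an estimate of 0.74 on the log2 scale (SE 0.26, adjusted p = 0.609) and of 0.63 without JAML-positive replicate A. Atp5g2 was at 118 and 46.2 CPM against 156 and 75.8 CPM. In each group replicate A was well above replicate B, the groups overlapped, and the log2 fold change of 0.48 (SE 0.44) was -0.12 without JAML-positive replicate A. Atp5g1 was at 9.31 and 23.8 CPM against 20.1 and 29.0 CPM, with overlap and a log2 fold change of 0.59 (SE 0.66). The Atp5g1 value was 0.06 and 1.42 when JAML-negative replicates A and B were left out in turn, and 0.28 without JAML-positive replicate B. Per kilobase of transcript, mean levels over the 4 libraries were 205 CPM for Atp5g3, 131 for Atp5g2 and 4.36 for Atp5g1. The longest coding transcript sets the length, 4715 nucleotides for Atp5g1 against 723 and 753 for Atp5g3 and Atp5g2, and it understates the level where a shorter form is made.

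The mitochondrially encoded subunits of complex V are ATP6, part of the proton channel, and ATP8, a small peripheral-stalk protein. ATP6 was at 9.24 and 10.9 CPM in JAML-negative and 11.7 and 10.04 CPM in JAML-positive libraries. The groups overlapped, with a log2 fold change of 0.10 (SE 0.86). ATP8 had 9, 4, 3 and 5 counts and did not pass the filter on low counts.

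Levels per length differed widely among the mitochondrial genes, which are made as parts of long shared precursor transcripts. COX1 averaged 10203 CPM per kilobase over the 4 libraries and CYTB 3831, whereas COX2 averaged 36.5, COX3 17.6, ATP6 15.4 and ATP8 0.903. To place these values, every run of 50 bases in each transcript was looked for in the other GENCODE genes. The share found in any other gene was 100% for COX2, 99.9% for COX3 and 99.5% for ATP6. The share on chromosome 1, where the unprocessed pseudogenes Gm28661, Gm28437 and Gm10925 lie, was 99.5%, 99.9% and 99.5% in that order. For COX1 the share found in any other gene was 51.1% and the share on chromosome 1 was 28.7%. Both shares were 0% for CYTB and ATP8.

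**Figure D4:**
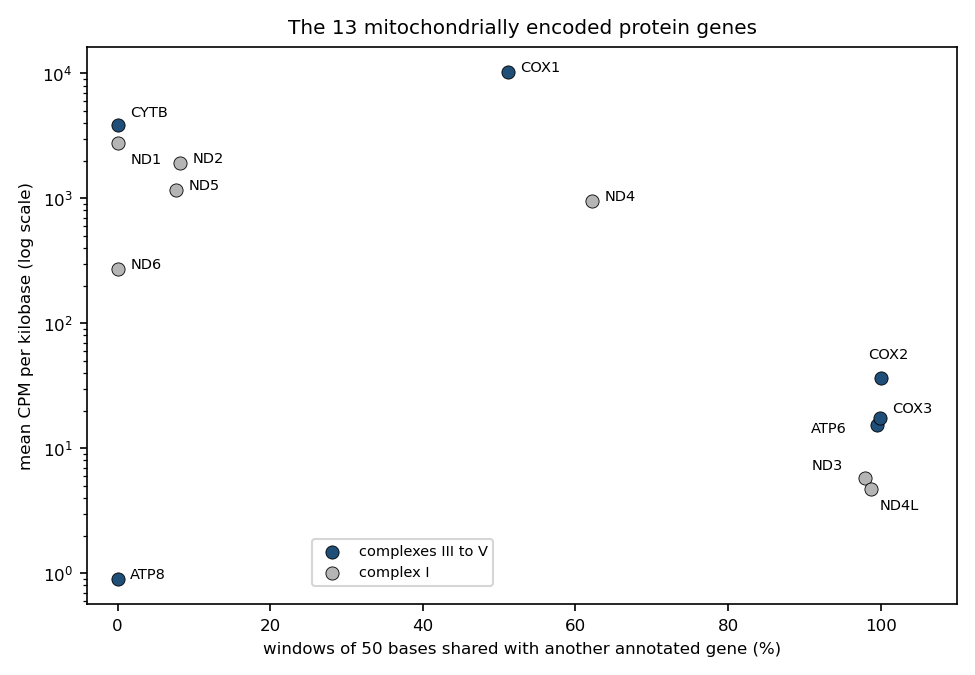
Each point is 1 of the 13 mitochondrially encoded protein genes. The horizontal axis is the percent of its 50-base windows found in another annotated gene, the vertical axis its mean CPM per kilobase over the 4 libraries on a log scale, and dark points belong to complexes III to V. The 5 genes with a share of at least 98.0% lie between 4.69 and 36.5 CPM per kilobase, and ATP8 lies at 0.903 with a share of 0%.

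Among the complex I genes of the same genome, those with nearly all windows shared also had the lowest levels. ND3 and ND4L, with 98.0% and 98.8% of windows found elsewhere, averaged 5.78 and 4.69 CPM per kilobase. ND1 (0%), ND2 (8.19%) and ND5 (7.61%) averaged 2771, 1931 and 1172, and ND4 with 62.2% averaged 950. ATP8, the shortest of the 13 at 204 bases, was low with no window shared with another annotated gene. Sequence outside annotated genes was not searched, so a share of 0% does not exclude a nuclear copy of ATP8. Among the other mitochondrial genes the level did not follow the share. ND6, the gene on the other strand, averaged 271 at a share of 0%, below ND4, and COX1 at 51.1% lay above CYTB at 0%. No source used here says how reads with several matches were counted, so low counts of COX2, COX3 and ATP6 and a low amount of these RNAs cannot be told apart. The 5 tested mitochondrial members had log2 fold changes of 0.10 to 0.37 with a median of 0.16, against 0.52 for the 42 nuclear genes.

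Nuclear members also share sequence with other genes, among them processed pseudogenes and protein-coding genes. Windows shared with another gene made up over 20% in 14 of the 49 genes, with the mitochondrial COX1, COX2, COX3 and ATP6 among the 14. The share was 0% in 19, with CYTB and ATP8 among them. The largest nuclear shares were 84.9% for Atp5l, 50.3% for Atp5o, 47.9% for Atp5h and 43.4% for Uqcrb, and counts of these genes are uncertain. The shares were 0% for Cox7a2, Uqcr10, Cyc1, Atp5g3 and Sdha, 0.857% for Atp5b and 10.9% for Uqcr11. Exons of Uqcrc2 overlap Pdzd9 on the opposite strand over 19.7% of their bases, and those of Atp5j overlap Gabpa over 12.7%, so reads of these pairs may not be told apart.

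The nuclear genes were also described by transcript length, with which their log2 fold change had a Spearman's rho of -0.21 across 42 genes, against -0.17 across all 11113 tested genes with a length. The 19 tested genes under 800 nucleotides had a median log2 fold change of 0.64, and 0.20 without JAML-positive replicate A. The 10 genes of 800 to 1500 nucleotides had 0.30, and -0.17 without it. The 13 genes of 1500 nucleotides or more had 0.45, and 0.32 without it with 12 of 13 above 0. In that longest class 10 of 13 had groups that did not overlap, all higher in JAML-positive libraries, against 19.4% of the 9426 tested genes of that length. Among all tested genes the medians were 0.35, 0.23 and -0.02 from the shortest to the longest class, and in JAML-positive libraries genes under 800 nucleotides were higher in replicate A than in B by a median of 0.65.

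Genes around the respiratory complexes were read in the same fit. Assembly factors, the chaperones and cofactor enzymes that build the complexes, had 25 of 35 tested genes with higher and 10 with lower values, against 50.7% higher among all tested genes, and a median of 0.46. None of the 35 passed edgeR's test (0 adjusted, 3 at an unadjusted p under 0.05, all higher, against 4.32% of all tested genes: Cox20, Coa6 and Slirp). Cox20, a chaperone of COX2, was at 8.14 and 4.36 CPM in JAML-negative and 37.0 and 23.5 CPM in JAML-positive libraries. Both JAML-positive libraries were higher, by 2.25 on the log2 scale (SE 0.76, adjusted p = 0.609). Coa6, a copper chaperone of complex IV, had 0 and 77 counts against 479 and 428 counts (log2 fold change 3.51, SE 1.32). Slirp, which with Lrpprc stabilises mitochondrial messenger RNA, had 2 and 0 counts against 234 and 176 counts (7.47, SE 3.14). Slirp passed the count filter only through its JAML-positive libraries, so it could be counted only as higher.

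The inhibitor Atpif1, which stops ATP synthase from running backwards, was at 13.7 and 14.9 CPM in JAML-negative and 28.4 and 35.6 CPM in JAML-positive libraries. Its JAML-positive replicate B lay above replicate A, and its log2 fold change was 1.17 (SE 0.59, adjusted p = 0.609). The ADP/ATP carriers Slc25a4 and Slc25a5, which exchange the product of ATP synthase across the membrane, had log2 fold changes of 0.40 and 0.38 with overlapping groups. Slc25a3, the phosphate carrier, was at -0.09. Of these 4 genes 0 passed edgeR's test and 0 had an unadjusted p under 0.05.

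Regulators of mitochondrial gene expression had lower values for 9 of 13 tested genes, with a median of -0.41, and -0.61 without JAML-positive replicate A. In edgeR 0 passed, and 3 of 13 had an unadjusted p under 0.05, all lower, against 3.34% of all tested genes. Ppargc1b, a coactivator of respiratory genes, was at 34.2 and 30.7 CPM in JAML-negative and 6.20 and 8.86 CPM in JAML-positive libraries (log2 fold change -2.09, SE 0.68, adjusted p = 0.609). Tfb2m, a mitochondrial transcription initiation factor, was at 45.9 and 27.5 CPM against 11.6 and 12.2 CPM (-1.63, SE 0.62). Polrmt, the RNA polymerase of mitochondria, was at 39.7 and 35.5 CPM against 19.1 and 13.2 CPM (-1.24, SE 0.56). For all 3 both JAML-positive libraries lay below both JAML-negative libraries, as they did for 7 of the 13 regulators against 18.2% of all tested genes.

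Among enzymes of the citric acid cycle, which supplies the electrons, 11 of 14 had higher values (50.7% of all tested genes) with a median of 0.34. Without JAML-positive replicate A 9 of 14 were higher and the median was 0.09. Groups did not overlap for 6 higher and 2 lower genes of the 14, against 20.3% and 18.2% of all tested genes. In edgeR 0 of the 14 passed, and 1 of 14 had an unadjusted p under 0.05, near the share over all tested genes (4.32% higher and 3.34% lower). Complex I, which feeds electrons in from NADH, had 37 of 46 tested genes with higher values and a median of 0.48, close to that of complexes II to V. Its median was 0.03 without JAML-positive replicate A. In complex I 0 passed edgeR's test and 5 of 46 had an unadjusted p under 0.05, all higher, against 4.32% of all tested genes. No difference between complex I and the other complexes was tested.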

How the data were processed

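Read counts per gene from 4 libraries of sorted CD8 T cells, 2 per group, were analysed. The authors deposited whole-number counts in 1 table, and per the labels libraries were made with a SMARTER mRNA-Seq kit from 1.3 ug of total RNA. Per the submitters' processing notes, reads were placed on GRCm38 (mm10). Which aligner and counter were used, and how strand and reads with several matches were treated, is not given in the sources used here. Of the deposited columns of per-sample values, 0 were left out.

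The test was that of edgeR 4.0.16 (R 4.3.3). The filterByExpr function, at a minimum count of 10, retained 11563 of 14934 genes. Counts were scaled with TMM factors and fitted over all 4 libraries with the robust quasi-likelihood method and no covariate, and p-values were adjusted by Benjamini-Hochberg over all tested genes at 0.05. The SE was derived from the log2 fold change and the F statistic. The code was tested on simulated data. Medians and counts over a gene list carry no test. DESeq2 1.42.0, limma-voom 3.58.1, 4 other scalings, 3 other filters, the replicate letter as a block, each library left out and a length and GC trend (mgcv 1.9.3) were tried. An earlier form of the quasi-likelihood method and a robust trend were chosen after seeing the data.

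The genes, lists and tests were chosen with earlier results of these data known. The rule for genes given by library took complex II, Cyc1, Cycs, the mitochondrial members, the 2 with the highest mean CPM in complexes III, IV and V, up to 4 of the smallest p-values per direction (2 genes had negative values), the listed tissue isoforms, the c subunit genes and members that failed the filter. Atp5md, Atp5j, Uqcrfs1 and the genes named for their shared sequence were named after their values were seen. Coordinates are from RefSeq (GRCm38.p6), and lengths and 50-base windows from GENCODE coding transcripts. Shared windows were counted on both strands.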

Additional observations from a re-analysis of the deposited data

How the results depend on the processing

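Of 29 results under 17 alternatives, 441 values kept their direction and, where an adjusted p was computed, their side of the threshold, or stayed near the reported value for counts and medians, 9 moved, 4 passed the threshold only in DESeq2 (Cox7a2, Uqcr11, Atp5g3 and Uqcr10) and 32 changed sign. The count past the threshold was 6 in DESeq2 and 0 in every other fit that gave p-values. The 2 groups share letters, and the deviations of A from B had a correlation of 0.02 across genes. That shows no shift shared by letter, but it cannot say whether libraries of the same letter were paired. With the replicate block 0 genes passed, 44 were positive and the median was 0.46. With 1 library left out 31 to 45 genes were positive, and the median was 0.20 to 0.78; the lone library of a group is then assumed to vary like the other pair. With smooth length and GC trends removed 22 were positive and medians were -0.028 for all members, -0.085 for complex II and -0.25 for complex IV, with Sdhd at -0.24, CYTB -0.39, COX1 -0.25, COX2 -0.46, COX3 -0.26, ATP6 -0.56, Uqcrh -0.62 and Cox7a2l -0.50; all genes were then at -0.17. With the robust trend CYTB was at -0.10, COX1 -0.0034, COX2 -0.076, ATP6 -0.16, Uqcrh -0.22 and Cox7a2l -0.23. Cox7a2l was at -0.013 with totals only, -0.017 in limma-voom and -0.0041 with the replicate block. Leaving out 1 library reversed Cycs, COX2, ATP6, Uqcrh, Cox7a2l, Uqcrc1 and Atp5g2, over ranges of -0.63 to 0.99, -0.0089 to 0.41, -0.020 to 0.23, -0.21 to 0.41, -0.34 to 0.32, -0.26 to 0.20 and -0.12 to 1.31 in that order. The cause was not tested. Among the respiratory genes given by library, the SE exceeded the size of the estimate for the 5 tested mitochondrial members. It also did so for Sdhb, Sdhd, Cycs, Uqcrh, Uqcrc1, Cox7a2l and Atp5g1. Differences of that size could not be told from 0 with these libraries, and no other respiratory gene passed edgeR's test either.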
